A study of Homo sapiens with 33 samples.

Results

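JUNB, IER3, PPP1R15A, GADD45B, ZFP36L1 and MCL1 are immediate early and stress response genes, and they were followed here through all 9 array spots that carry 1 of their symbols alone, out of 34560 spots on the array. JUNB had 3 spots, MCL1 had 2, and each of the other 4 genes had 1. None of the 6 symbols stood on a spot with several symbols. The genes were picked with their differences after tumour necrosis factor alpha (TNF) in these arrays already known, so those differences are given below as a description with no test.

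RNA came from CaCo-2, an adherent colon carcinoma line with epithelial features, and THP-1, a suspension line from a monocytic leukaemia, and was hybridised as radioactively labelled cDNA to cDNA membranes. CaCo-2 TNF and THP-1 TNF cells were given recombinant human TNF at 5 ng per ml for 60 min, while CaCo-2 control and THP-1 control cells were not stimulated. After repeated columns were counted once, 5 CaCo-2 TNF, 5 CaCo-2 control, 7 THP-1 TNF and 5 THP-1 control arrays entered the comparisons. The labels do not say whether arrays came from separate cultures, so the spread between them may be technical. All arrays came from bulk RNA, where fewer cells expressing a gene and less RNA per cell cannot be told apart.

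Immediate early genes are transcribed within minutes of a stimulus without new protein synthesis, from promoters already bound by factors that kinases activate. TNF acts through its receptors on the NF-kB pathway and on the stress kinases JNK and p38, and both feed such genes. JUNB is a subunit of the AP-1 transcription factor. IER3 is an early response protein that modulates survival and MAP kinase signalling. ZFP36L1 binds AU-rich elements and promotes mRNA decay. PPP1R15A (GADD34) brings protein phosphatase 1 to eIF2 alpha and so restores translation after stress. GADD45B binds stress kinase regulators, and MCL1 is a short-lived BCL2 relative that restrains BAX and BAK.

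The genes lie, in GRCh38.p14 coordinates, at 12791486 to 12793315 on chromosome 19 for JUNB, 30743199 to 30744547 on chromosome 6 for IER3, and 48872421 to 48876058 on chromosome 19 for PPP1R15A. GADD45B spans 2476127 to 2478257 on chromosome 19, ZFP36L1 68787655 to 68796243 on chromosome 14, and MCL1 150574558 to 150579610 on chromosome 1. Which stretch of its transcript each cDNA covers is not stated in the labels or files.

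RefSeq promoters (GRCh38.p14, 250 bases before to 50 bases after the start site, written 5′ to 3′ on the gene's strand) matched 4 of the 6 genes, with IER3 and MCL1 unmatched. They are shown because TNF and stress pathways feed such genes, as described above. Whether TNF acted on these genes here was not tested. Capitals mark the TATA box TATAAA, the cyclic AMP response element TGACGTCA and matches to the NF-kB consensus, searched on both strands.
JUNB, chr19:12791236-12791535, plus strand: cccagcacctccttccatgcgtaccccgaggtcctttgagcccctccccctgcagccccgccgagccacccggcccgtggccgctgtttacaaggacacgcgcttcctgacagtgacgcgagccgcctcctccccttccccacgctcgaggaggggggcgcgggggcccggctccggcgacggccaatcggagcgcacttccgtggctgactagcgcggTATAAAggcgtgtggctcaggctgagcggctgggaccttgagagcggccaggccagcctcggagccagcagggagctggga
PPP1R15A, chr19:48872171-48872470, plus strand: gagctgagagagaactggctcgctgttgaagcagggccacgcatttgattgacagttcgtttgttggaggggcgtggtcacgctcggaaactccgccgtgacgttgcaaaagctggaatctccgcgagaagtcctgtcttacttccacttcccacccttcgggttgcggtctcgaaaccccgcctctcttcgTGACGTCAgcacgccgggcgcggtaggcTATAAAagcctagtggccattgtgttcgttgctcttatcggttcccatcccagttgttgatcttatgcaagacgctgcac
GADD45B, chr19:2475877-2476176, plus strand: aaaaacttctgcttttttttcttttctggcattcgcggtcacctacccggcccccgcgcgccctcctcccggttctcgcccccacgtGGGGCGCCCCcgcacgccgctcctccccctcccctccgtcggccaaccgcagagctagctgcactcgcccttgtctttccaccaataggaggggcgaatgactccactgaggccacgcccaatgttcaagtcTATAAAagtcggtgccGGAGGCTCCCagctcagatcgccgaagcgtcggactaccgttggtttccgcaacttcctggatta
ZFP36L1, chr14:68793367-68793666, minus strand: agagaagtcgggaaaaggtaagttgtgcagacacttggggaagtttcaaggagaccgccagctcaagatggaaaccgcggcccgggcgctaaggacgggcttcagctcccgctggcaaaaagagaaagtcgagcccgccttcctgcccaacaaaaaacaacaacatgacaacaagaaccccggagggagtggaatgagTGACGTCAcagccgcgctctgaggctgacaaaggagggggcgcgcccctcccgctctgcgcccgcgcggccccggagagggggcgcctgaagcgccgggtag

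JUNB, PPP1R15A and GADD45B each had 1 TATAAA, starting at -31, -30 and -31 from the start site. This motif was in 11.5% of the 35116 promoters of the table. PPP1R15A and the ZFP36L1 promoter shown each had 1 TGACGTCA, starting at -58 and -52, a motif in 1.85% of promoters. GADD45B had 2 matches to the NF-kB consensus, starting at -163 and -15, and the other promoters shown had 0, against 11.3% of promoters with at least 1. ZFP36L1 had a second promoter in the table, which held none of these 3 motifs. These matches describe letters only, and no binding was measured.

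Intensities are given as deposited, on a linear scale, before any log. An exact 0 stood at 32.0% to 39.6% of spots on each array used, and between 46 and 286 spots per array carried a code for exclusion. Of the markers fixed for the lines, 4 of 17 leukocyte and monocyte genes and 4 of 17 intestinal epithelial genes had a spot. Of the 4 leukocyte markers, only LAPTM5, a lysosomal protein of blood cells, was called between the lines, above 0 on 1 of 10 CaCo-2 and 12 of 12 THP-1 arrays. PTPRC was above 0 on 9 of 10 CaCo-2 and 12 of 12 THP-1 arrays and CSF1R on 8 of 10 CaCo-2 and 11 of 12 THP-1 arrays, with limma adjusted p of 0.467 and 0.720. TYROBP was above 0 on 10 of 10 CaCo-2 and 11 of 12 THP-1 arrays, with a log2 difference of 0.13 (limma adjusted p = 0.548). Of the 4 epithelial markers, ELF3, a transcription factor, was called lower in CaCo-2, against its cell type (limma adjusted p = 0.0119). VIL1 stood at 0.22, CLDN4 at -0.08 and CDH17 at -0.04 on the log2 scale, CaCo-2 over THP-1, with limma adjusted p of 0.155, 0.327 and 0.593. So 1 of these 8 markers was called in the direction of its label and 1 against it. Many defining markers of either line, such as CD14, LYZ, KRT8 and EPCAM, had no spot with their symbol alone, so the labels were checked on few genes. Of 9 fibroblast and endothelial markers 6 had a spot, and 0 were called between the lines.

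Where a member spot was read above 0, most values lay near the spot's median, with PPP1R15A running from 0.150 to 0.256 and JUNB spot 54O01 from 0.275 to 0.445. The brightest was MCL1 spot 85G24, with a median of 0.643, above 92.9% of the array's spots. JUNB spot 54O01 followed at 0.418, then IER3 spot 56E07 at 0.290, ZFP36L1 spot 80O04 at 0.257 and MCL1 spot 25B21 at 0.214. PPP1R15A spot 61D08 read 0.179, JUNB spot 22G16 0.154, JUNB spot 89L10 0.137 and GADD45B spot 88M11 0.135. These levels belong to spots, and spots of different cDNAs cannot be ranked as transcript amounts. On IER3, the 12 THP-1 arrays lay between 0.273 and 0.302.

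Arrays also differed in whether a spot was listed at 0. MCL1 spot 85G24 was never at 0. JUNB spot 54O01 was at 0 on 31.8% of 22 arrays, where the median of 1303 spots within 10% of its level was 4.55% and their 90th percentile 50%. ZFP36L1 was at 0 on 45.5% of arrays, against a median of 13.6% and a 90th percentile of 63.6% among 2855 spots of like level. GADD45B and JUNB spot 89L10 were each at 0 on 54.5% of arrays, against a median of 40.9% for spots of their levels. JUNB spot 22G16 at 9.09%, PPP1R15A at 9.52% and MCL1 spot 25B21 at 4.55% were at 0 less often than the medians of 40.9%, 36.4% and 22.7% for spots like them. So the brighter JUNB spot and ZFP36L1 were at 0 more often than the median spot of their brightness, though within the range that like spots covered.

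**Figure D1:**
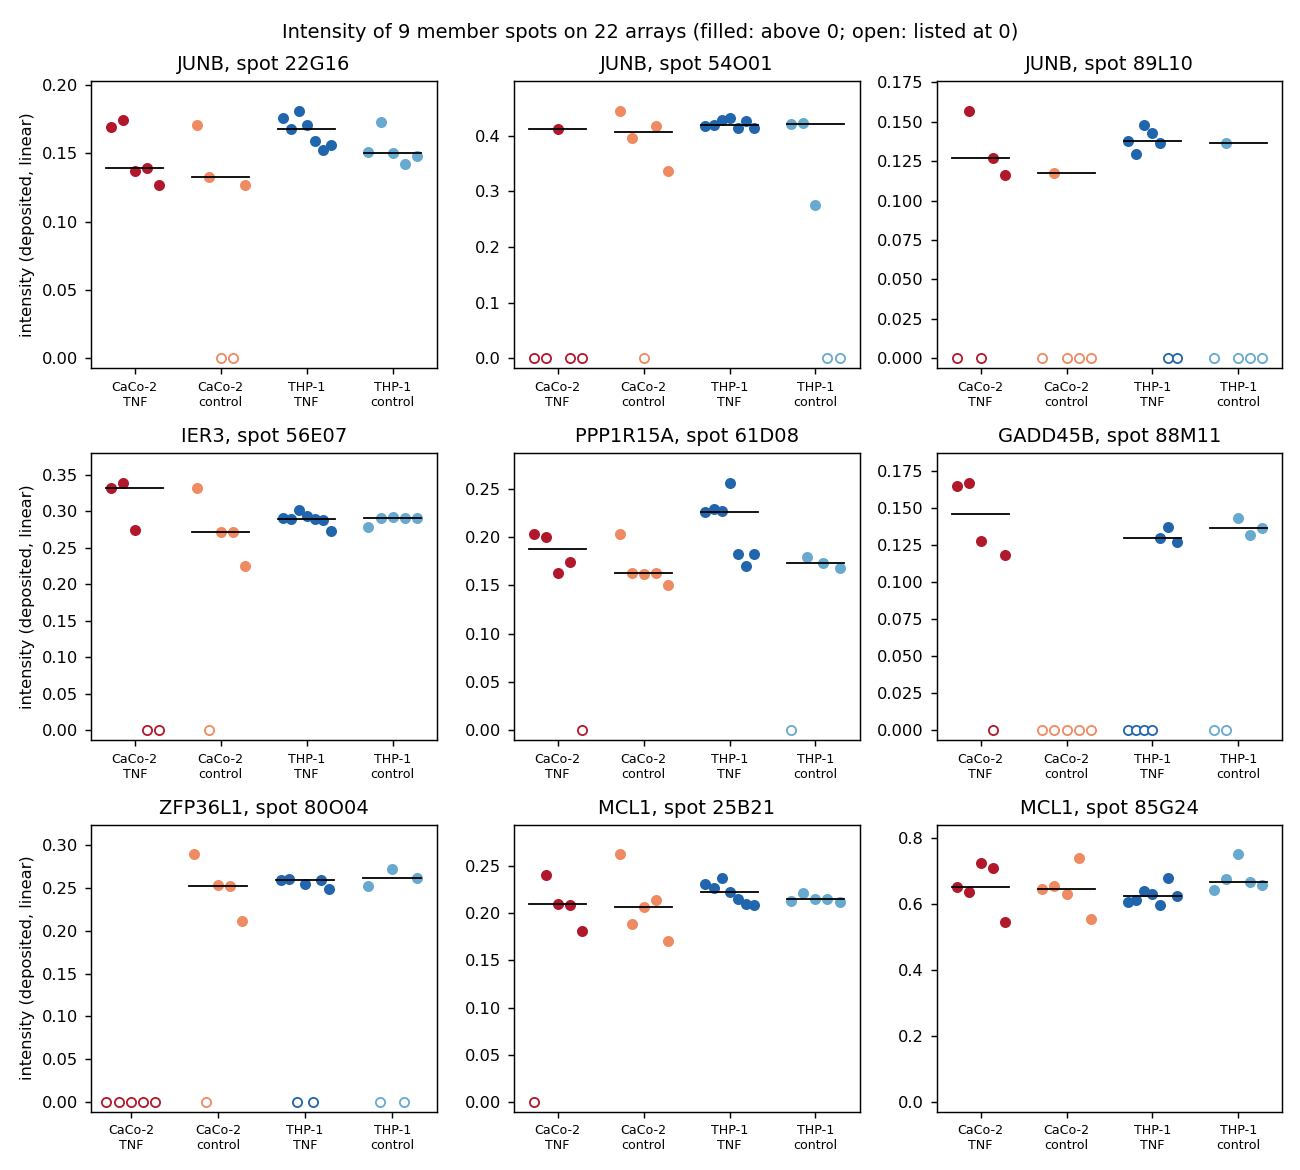
Deposited intensity (linear scale) of each of the 9 spots on the 22 arrays, by group; filled points are above 0, open points are listed at 0, and the line is the median of the readings above 0. PPP1R15A in THP-1 TNF runs from 0.170 to 0.256, and ZFP36L1 in CaCo-2 TNF and GADD45B in CaCo-2 control have only open points.

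**Figure D2:**
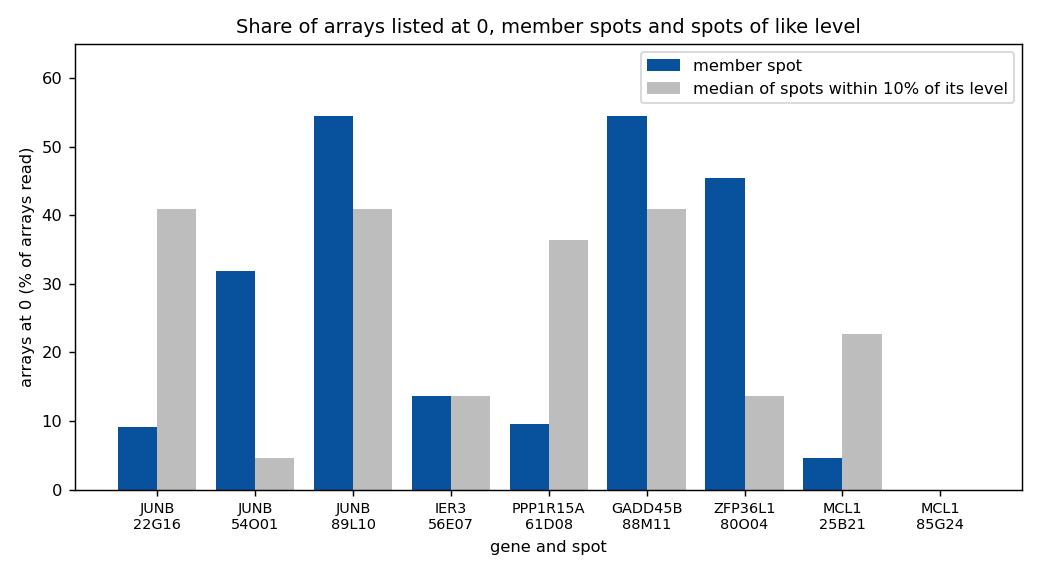
Share of arrays on which each member spot was listed at 0, beside the median share of spots within 10% of its level, as percent of the arrays read. JUNB spot 54O01 (31.8% against 4.55%) and ZFP36L1 (45.5% against 13.6%) stand above the median of spots like them.

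A 0 did not always mean that nothing was read. For 9 of the arrays a further column held the summed signal of what behaved as 3 readings of the same array. The sum was 2.00 times the single value at 7 member values, counted as 2 readings above 0, and 2.74 to 3.13 times at 48, counted as 3. Member spots had 26 zeros in those 9 single columns. In 19 of the 26 the summed column was still above 0, at 0.770 to 1.10 times the spot's level in that line, with a median of 0.879, which is the size of 1 reading. In the other 7 the sum was 0 too. So no single value of 0 at a member spot had more than 1 reading above 0 behind it. Counts of readings are therefore tied to the zeros, and the 3 readings of an array are not replicates of a condition. The number of readings above 0 was taken as the sum over the single value, or over the spot's level in the line where the single value was 0. The ratio was rounded, and it lay at most 0.260 from a whole number over all 81 values. THP-1 control replicate 3, a summed column with no partner, was not among them. Its sum at MCL1 spot 85G24 was 3.52 times the line's level, 0.481 from a whole number.

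JUNB gave different pictures on its 3 spots. On spot 54O01, CaCo-2 TNF arrays read 0, 0, 0.412, 0 and 0, against 0.445, 0.396, 0, 0.417 and 0.336 on CaCo-2 control arrays. On this spot 1 of 5 CaCo-2 TNF arrays was above 0, against 4 of 5 CaCo-2 control arrays. A pattern of at most 1 TNF array and at least 4 control arrays above 0 was shared by 1.38% of 33653 spots. In the readings behind the sums, 1 of 6 was above 0 in CaCo-2 TNF and 9 of 12 in CaCo-2 control. A further pair of columns, labelled CaCo-2 TNF in the single column and CaCo-2 control in the summed one, entered no comparison and read 0 in both on this spot.

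The other JUNB spots did not follow it in CaCo-2. Spot 22G16 read 0.169, 0.175, 0.137, 0.139 and 0.126 on CaCo-2 TNF arrays, against 0.171, 0.132, 0, 0 and 0.127 on CaCo-2 control arrays. Spot 89L10 read 0, 0.157, 0, 0.127 and 0.116 on CaCo-2 TNF arrays, against 0, 0.118, 0, 0 and 0 on CaCo-2 control arrays. Both were above 0 on more TNF arrays than control arrays, the reverse of spot 54O01, and the groups overlapped on all 3 spots. With 0 raised to the lowest value of the array and arrays quantile normalized, the log2 differences of TNF over control in CaCo-2 were -1.20 ± 0.53 for spot 54O01, 0.17 ± 0.13 for 22G16 and 0.14 ± 0.09 for 89L10 (SE, limma). The value for spot 54O01 rests on the level set for 0, since 4 of 5 CaCo-2 TNF arrays were at 0. With 0 as missing, spot 22G16 stood at -0.04 ± 0.03, and no value was obtained for the other spots.

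In THP-1 the normalized means of all 3 JUNB spots pointed the same way, while the readings behind the sums did not. Spot 54O01 ran from 0.414 to 0.433 with a median of 0.419 on the 7 THP-1 TNF arrays, against 0.422, 0.423, 0.275, 0 and 0 on THP-1 control arrays. The 0.275 came from a summed column with no partner, divided by 3, whose sum of 0.824 was 1.95 times the line's level. Spot 22G16 ran from 0.153 to 0.181 with a median of 0.167 on THP-1 TNF arrays, against 0.151, 0.173, 0.150, 0.142 and 0.148 on THP-1 control arrays. Spot 89L10 ran from 0 to 0.148 with a median of 0.137 on THP-1 TNF arrays, 5 of 7 above 0, against 0.137 on 1 THP-1 control array and 0 on the other 4. The THP-1 groups overlapped on each spot, and each spot's normalized mean was higher on TNF arrays. The log2 differences were 0.93 ± 0.36 for 54O01, 0.14 ± 0.06 for 22G16 and 0.22 ± 0.11 for 89L10 (SE, limma), and with 0 as missing 54O01 was at 0.20 ± 0.11. That 0.20 rests on the control at 0.275, whose sum counted as 2 readings but was divided by 3. The controls at 0.422 and 0.423 lay within the range of the TNF arrays. In the pairs, all 3 readings of spot 54O01 in THP-1 TNF and all 6 in THP-1 control were above 0, so the controls at 0 are arrays with no summed partner. All 3 and all 6 were above 0 on spot 22G16 too. Spot 89L10 had 1 of 3 above 0 in THP-1 TNF and 4 of 6 in THP-1 control, against the sign of its log2 difference. These readings came from 1 THP-1 TNF and 2 THP-1 control arrays. A pattern of every TNF array above 0 and at least 2 control arrays at 0, as on spot 54O01, was found at 1.21% of 33569 spots.

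IER3 was above 0 on all 12 THP-1 arrays, each a single column except THP-1 control replicate 3, the divided sum. It ran from 0.273 to 0.302 with a median of 0.290 on THP-1 TNF arrays, against 0.278, 0.290, 0.291, 0.290 and 0.290 on THP-1 control arrays. Its normalized log2 level was -1.81 ± 0.03 (SD, n = 7) in THP-1 TNF and -1.84 ± 0.0078 (SD, n = 5) in THP-1 control. Behind the sums all 3 readings in THP-1 TNF and 4 of 6 in THP-1 control were above 0. With summed columns in place of single ones the log2 difference was 0.23, against 0.03 with single columns. The sums of THP-1 control replicates 1 and 2 held 2 readings each but were divided by 3, and arrays with no partner stayed unchanged. So the 0.23 depends on that divisor. In CaCo-2 it read 0.331, 0.339, 0.274, 0 and 0 after TNF, against 0.332, 0, 0.271, 0.271 and 0.225 in controls. Behind the sums 4 of 6 readings were above 0 in CaCo-2 TNF and 10 of 12 in CaCo-2 control. The log2 difference in CaCo-2 was -0.25 ± 0.44 (SE, limma), and with 0 as missing it was 0.06 ± 0.03, so the sign rested on the zeros. The readings of 0.331 and 0.339 after TNF and 0.332 in controls came from the CaCo-2 arrays with the largest lowest positive values, 0.130 to 0.136. The part of this in the 0.06 was not tested. With 0 raised to the array's lowest value, the difference ran from -0.54 without CaCo-2 control replicate 2 to -0.02 without CaCo-2 TNF replicate 5.

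ZFP36L1 was listed at 0 on all 5 CaCo-2 TNF arrays, against 0.289, 0, 0.254, 0.252 and 0.211 on CaCo-2 control arrays. Across the array 66 of 33653 spots, or 0.196%, were at 0 on every CaCo-2 TNF array and above 0 on at least 4 control arrays. In both CaCo-2 TNF arrays with a summed partner, the sum held 0.227 and 0.212, the size of 1 reading, so that 2 of 6 readings were above 0 in CaCo-2 TNF and 10 of 12 in CaCo-2 control. CaCo-2 control replicate 2, at 0 in its single column, held 0.257 in its sum. In the pair with both labels, the single value was 0.247. In THP-1, ZFP36L1 ran from 0 to 0.261 with a median of 0.255 after TNF, 5 of 7 arrays above 0, against 0.253, 0, 0.273, 0 and 0.262 in controls. The THP-1 groups covered the same range, with a log2 difference of 0.14 ± 0.37 (SE, limma), which was -0.05 without THP-1 control replicate 2 or without replicate 4.

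GADD45B showed the opposite arrangement in CaCo-2. It read 0.165, 0.167, 0.128, 0 and 0.119 on CaCo-2 TNF arrays and was listed at 0 on all 5 CaCo-2 control arrays. At least 4 TNF arrays above 0 with every control array at 0 occurred at 73 of 33653 spots, or 0.217%. In the sums, CaCo-2 TNF replicate 1 held 3 readings and replicate 5 held 1, while CaCo-2 control replicates 1 to 4 held 0, 1, 1 and 1. That makes 4 of 6 readings in CaCo-2 TNF and 3 of 12 in CaCo-2 control. The pair with both labels had a single value of 0.133. In THP-1 the spot ran from 0 to 0.137 with a median of 0 after TNF, 3 of 7 arrays above 0, against 0, 0, 0.144, 0.132 and 0.137 in controls. The 3 THP-1 TNF arrays above 0 were replicates 5, 6 and 8, and the log2 difference was -0.07 ± 0.11 (SE, limma). Behind the sums, 3 of 3 readings in THP-1 TNF and 2 of 6 in THP-1 control were above 0, against that sign. They came from 1 THP-1 TNF and 2 THP-1 control arrays. Since GADD45B and ZFP36L1 each had 1 CaCo-2 group wholly at 0, a fold change there would rest on the value set for 0, and none is given.

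PPP1R15A had its larger difference in THP-1. It ran from 0.170 to 0.256 with a median of 0.226 on THP-1 TNF arrays, against 0, 0.179, 0.173 and 0.168 on THP-1 control arrays, with 1 control array excluded at this spot. THP-1 TNF replicates 1 to 4 read 0.226, 0.229, 0.227 and 0.256, above all controls, while replicates 5, 6 and 8 read 0.183, 0.170 and 0.182, near them. The log2 difference was 0.47 ± 0.16 (SE, limma) and 0.27 ± 0.12 with the control at 0 taken as missing. In CaCo-2 it read 0.203, 0.200, 0.163, 0.174 and 0 after TNF, against 0.204, 0.163, 0.161, 0.163 and 0.150 in controls, with a log2 difference of -0.16 ± 0.15 (SE, limma). Apart from the array at 0, the CaCo-2 groups covered the same range.

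THP-1 TNF arrays were not all alike in which spots they listed at 0. Over the 20506 spots at 0 on some but not all of them, replicates 1, 2 and 4 shared zeros with an r of 0.278 to 0.307. Replicate 6 had an r of 0.207 to 0.241 with those 3, replicate 3 one of 0.144 to 0.154, and replicate 8 one of -0.063 to 0.0073 with all others. In the other 3 groups such values lay between -0.111 and 0.117. The part of this in the THP-1 values was not tested.

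MCL1 spot 85G24 was above 0 on every array. It read 0.653, 0.637, 0.723, 0.709 and 0.546 on CaCo-2 TNF arrays, against 0.645, 0.654, 0.632, 0.740 and 0.556 on CaCo-2 control arrays. In THP-1 it ran from 0.598 to 0.679 with a median of 0.623 after TNF, against 0.641, 0.675, 0.750, 0.666 and 0.657 in controls, with the 0.750 from the divided sum. The log2 differences were -0.01 ± 0.05 in CaCo-2 and -0.12 ± 0.04 in THP-1 (SE, limma). The THP-1 value ran from -0.144 to -0.0792 over left-out arrays. The dimmer spot 25B21 had 0.06 ± 0.03 in THP-1, of the opposite sign, with 0.208 to 0.238 and a median of 0.223 on TNF arrays against 0.213, 0.222, 0.215, 0.215 and 0.212 on controls. In CaCo-2 that spot read 0, 0.241, 0.210, 0.209 and 0.181 after TNF, against 0.262, 0.189, 0.206, 0.214 and 0.170 in controls. The array at 0, CaCo-2 TNF replicate 1, held 1 reading in its sum. Its log2 difference was -0.22 ± 0.20 (SE, limma), and -0.01 ± 0.03 with the 0 as missing.

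**Figure D3:**
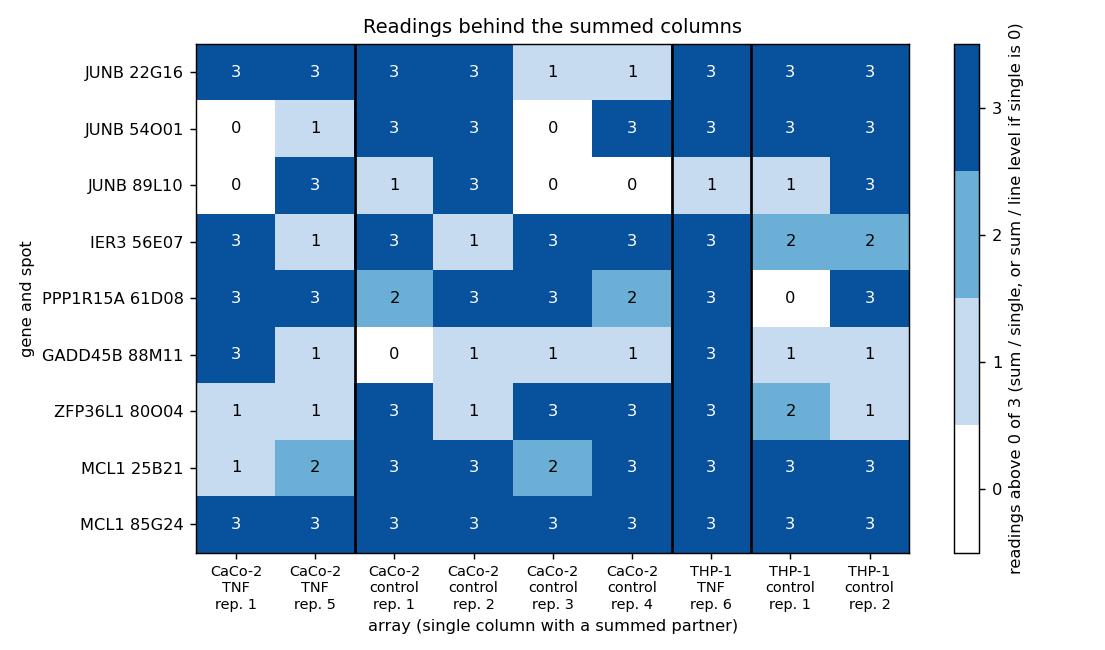
Number of readings above 0, out of 3, behind each of the 9 arrays that have both a single and a summed column, for the 9 member spots. JUNB spot 54O01 and ZFP36L1 hold at most 1 reading in both CaCo-2 TNF arrays, and MCL1 spot 85G24 holds 3 throughout.

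Over the 9 spots, TNF and control arrays overlapped on every spot in CaCo-2 and in THP-1. Across the array, every TNF array lay above every control array at 0.199% of spots in CaCo-2 and 0.0447% in THP-1, and below at 0.125% and 0.104%. Limma called 0.0434% of spots in CaCo-2 and 0.0145% in THP-1 at an adjusted p under 0.05. Nothing is read from these shares about the members, which were chosen on this contrast.

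CaCo-2 and THP-1 were compared over all arrays of each line. With equal spread in TNF and control arrays, which the limma fit assumes, such a comparison is not correlated with the TNF difference that chose the genes. The spread was not equal on several spots, with an SD in log2 of 0.03 in THP-1 TNF and 1.01 in THP-1 control for JUNB spot 54O01. For ZFP36L1 the SD was 0 in CaCo-2 TNF and 0.59 in CaCo-2 control. The comparison is therefore not independent of how the genes were chosen, and its p-values are given as a description. It asks whether the 6 genes differ in level between CaCo-2 and THP-1. None of the 9 spots was called, against 4.34% of 34559 spots called by limma, 908 higher (2.63%) and 591 lower (1.71%) in CaCo-2. At an unadjusted p under 0.05 there was 1 of 9 member spots, JUNB spot 22G16, against 19.1% of all spots.

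JUNB spot 22G16 averaged -2.87 ± 0.21 (SD, n = 10) in CaCo-2 and -2.66 ± 0.11 (SD, n = 12) in THP-1 on the normalized log2 scale. It was above 0 on 8 of 10 CaCo-2 arrays and on all 12 THP-1 arrays. The log2 difference was -0.21 ± 0.07 (SE, limma adjusted p = 0.0832). With 0 as missing the difference was -0.13 ± 0.03 (SE, limma adjusted p = 0.0226). Its limma adjusted p ranged from 0.0226 to 0.557 over the alternative settings and left-out arrays, and passed with 0 as missing alone. The other JUNB spots were also lower in CaCo-2 in sign, at -0.61 ± 0.31 for 54O01 and -0.07 ± 0.07 for 89L10, with adjusted p of 0.297 and 0.613 in limma. Their sign was not kept in every setting. Spot 54O01 stood at 0.526 with unstimulated arrays only, and spot 89L10 at 0.10 with array medians subtracted.

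IER3 was above 0 on 7 of 10 CaCo-2 arrays and all 12 THP-1 arrays, with a log2 difference of -0.41 ± 0.20 (SE, limma adjusted p = 0.282). Its 95% interval ran from -0.84 to 0.01. With 0 as missing the IER3 difference was 0.0145, so the -0.41 rested on the CaCo-2 arrays at 0. ZFP36L1 was above 0 on 4 of 10 CaCo-2 and 8 of 12 THP-1 arrays, with -0.33 ± 0.23 (SE) and an interval from -0.82 to 0.16. PPP1R15A, read on 10 CaCo-2 and 11 THP-1 arrays, had -0.12 ± 0.11 (SE), and GADD45B, above 0 on 4 of 10 CaCo-2 and 6 of 12 THP-1 arrays, had -0.02 ± 0.07 (SE). MCL1 spot 85G24 averaged -0.61 ± 0.08 (SD, n = 10) in CaCo-2 and -0.64 ± 0.09 (SD, n = 12) in THP-1, with a difference of 0.03 ± 0.03 (SE) and an interval from -0.04 to 0.10. Of the 9 spots, MCL1 spot 85G24 had the narrowest interval, and an adjusted p that misses the threshold does not show equal levels.

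**Figure D4:**
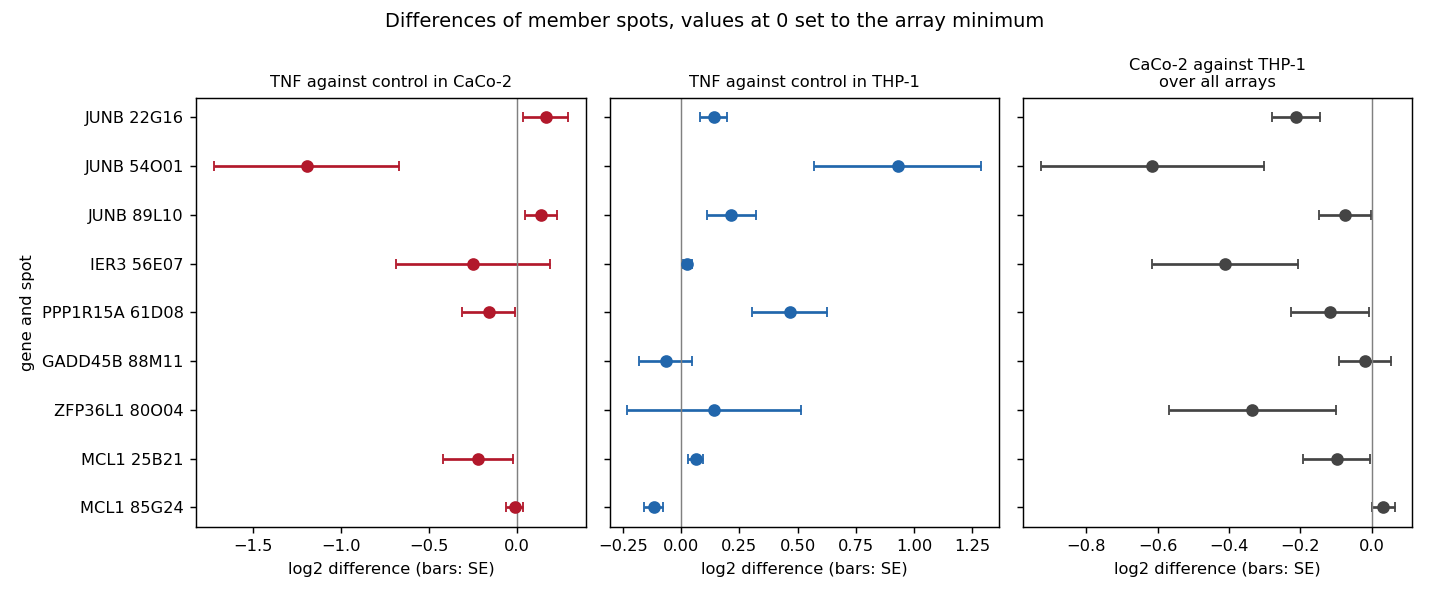
Log2 difference of each spot for TNF against control in CaCo-2, TNF against control in THP-1, and CaCo-2 against THP-1 over all arrays; points are limma estimates on normalized log2 values with 0 raised to the array's lowest value, and bars are SE. GADD45B and ZFP36L1 are left out for CaCo-2, where 1 of their groups is wholly at 0. JUNB spot 54O01 lies at -1.20 in CaCo-2, a value set by 4 of 5 TNF arrays at 0, and at 0.93 in THP-1. The THP-1 value is 0.20 with 0 as missing, which rests on THP-1 control replicate 3, the divided sum. MCL1 spot 85G24 lies at -0.01 in CaCo-2 and -0.12 in THP-1.

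Other genes of the same pathways were counted from fixed lists, each gene through its brightest spot. Across all spots 4.34% were called between the lines, 0.0434% after TNF in CaCo-2 and 0.0145% after TNF in THP-1. Among 13 measured AP-1 and CREB/ATF relatives 0 were called after TNF in CaCo-2 or in THP-1, with 1 at an unadjusted p under 0.05 in each, where 4.21% of all spots in CaCo-2 and 3.37% in THP-1 had such a p. Their median log2 difference was 0.04 in both lines, where the median over all spots was 0.0013 in CaCo-2 and 0 in THP-1. FOSL2, an AP-1 subunit, was above 0 on 5 of 5 CaCo-2 TNF and 3 of 5 CaCo-2 control arrays, and on 7 of 7 THP-1 TNF and 3 of 5 THP-1 control arrays. Its log2 differences were 0.22 ± 0.10 in CaCo-2 and 0.20 ± 0.09 in THP-1 (SE), with adjusted p of 0.949 and 0.958 in limma. BATF3, another basic leucine zipper factor, had 0.49 ± 0.20 in CaCo-2 and 0.37 ± 0.21 in THP-1 (SE), at the same adjusted p in limma. BATF3 was above 0 on 5 of 5 CaCo-2 TNF and 2 of 5 CaCo-2 control arrays, and on 6 of 7 THP-1 TNF and 2 of 5 THP-1 control arrays. The values of FOSL2 and BATF3 therefore depend on the level set for 0. JUN was above 0 on 7 of 7 THP-1 TNF and 4 of 5 THP-1 control arrays, with 0.15 ± 0.08 there (SE, limma adjusted p = 0.958).

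Of 21 other immediate early genes 0 were called after TNF in either line, and 1 in CaCo-2 and 0 in THP-1 had an unadjusted p under 0.05. Their medians were 0.02 in CaCo-2 and -0.02 in THP-1. The 1 in CaCo-2 was SGK1, a stress-regulated kinase, at -0.36 ± 0.15 (SE, limma adjusted p = 0.949). SGK1 was above 0 on 1 of 5 CaCo-2 TNF and 4 of 5 CaCo-2 control arrays, so this value depends on the level set for 0. Of 8 measured GADD45 relatives and stress kinases 0 were called in any comparison, where the shares over all spots were 4.34% between the lines, 0.0434% after TNF in CaCo-2 and 0.0145% in THP-1. Their medians after TNF were 0.03 in CaCo-2 and -0.02 in THP-1. GADD45G, a paralogue of GADD45B, was above 0 on 4 of 5 CaCo-2 TNF and 1 of 5 CaCo-2 control arrays, with 0.13 ± 0.07 (SE, limma adjusted p = 0.949). Of 12 eIF2 and protein phosphatase 1 genes 0 were called, with medians after TNF of -0.06 in CaCo-2 and -0.02 in THP-1. PPP1R15B, the constitutive counterpart of PPP1R15A, was above 0 on every array, with a log2 difference between the lines of 0.07 ± 0.03 (SE, limma adjusted p = 0.161).

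Of 15 mRNA decay factors and partners of the ZFP36 family 0 were called after TNF, with medians of -0.0088 in CaCo-2 and 0.02 in THP-1, and 1 was called between the lines, against 4.34% of all spots. At an unadjusted p under 0.05 there were 5 of 15 between the lines, against 19.1% of all spots, and the median was 0.04, against 0.0053 over all spots. The called gene was CNOT8, a deadenylase subunit, at 0.77 ± 0.16 (SE, limma adjusted p = 0.0094), above 0 on 9 of 10 CaCo-2 and 3 of 12 THP-1 arrays. Of 11 MCL1 partners and turnover factors 0 were called after TNF, with medians of -0.02 in CaCo-2 and 0.01 in THP-1, and 1 was called between the lines, against 4.34% of all spots. At an unadjusted p under 0.05 there were 5 of 11 between the lines, against 19.1% of all spots, and the median was -0.03. The called gene was BID, a BH3-only protein that MCL1 restrains, lower in CaCo-2 at -0.63 ± 0.15 (SE, limma adjusted p = 0.0174). BID was above 0 on 1 of 5 CaCo-2 TNF and 3 of 5 CaCo-2 control arrays, and on all 12 THP-1 arrays. BAK1, an MCL1 target at mitochondria, had -0.12 ± 0.05 between the lines (SE, limma adjusted p = 0.137).

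For each member with a spot above 0 on at least 12 arrays, the 2 spots of other genes with the most similar pattern were found by Pearson r over the arrays where both were above 0. The arrays share normalization and brightness, so these values only describe likeness. They are also the highest of many, from 3887 spots compared for ZFP36L1 to 11913 for MCL1, so a high r may come from that search. PPP1R15A was most like TDRD10 (r = 0.922, rho = 0.811 over 12 arrays) and PHACTR2 (r = 0.914, rho = 0.763 over 19 arrays). IER3 was most like DBF4 (r = 0.943, rho = 0.832) and SLC39A6 (r = 0.927, rho = 0.832), each over 12 arrays. ZFP36L1 was most like TOMM22 (r = 0.933, rho = 0.930) and CENPU (r = 0.914, rho = 0.874), each over 12 arrays. MCL1 was most like PHGDH (r = 0.849, rho = 0.895 over 12 arrays) and TRAIP (r = 0.764, rho = 0.336 over 15 arrays). JUNB spot 54O01 reached an r of 0.997 with NIPBL over 12 arrays and 0.996 with ZBTB44 over 13, where rho was 0.818 and 0.390. The array farthest from the others on this JUNB spot was THP-1 control replicate 3, the divided sum. GADD45B, above 0 on 10 arrays, was not compared.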

How the data were processed

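RNA from both lines was labelled with radioactive nucleotide during reverse transcription and hybridised to cDNA membranes, per the labels' protocols. The files hold each spot's deposited intensity, linear to judge by its range. How the authors read the images, and whether they subtracted background or normalized, is not given in the sources.

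The table has 33 columns of 34560 spots. Of these, 11 had values near 3 times those of the rest, and 10 of them were at least double 1 particular single column at over 99.5% of the spots above 0 in both. Of the 10 pairs, 9 were counted once through the single column, and 1, with opposite labels, was left out. THP-1 control replicate 3, a summed column with no partner, was divided by 3. Negative codes were set to missing, 0 was raised to the array's lowest positive value, and log2 values were quantile normalized over 22 arrays. Two-sided moderated tests came from limma 3.58.1 (R 4.3.3), eBayes using a variance trend. Benjamini-Hochberg adjusted p-values covered every spot, and those under 0.05 were called. The contrast of lines weighted group means by their arrays. The fit was tested on simulated data, with changes added only to spots above 0 on every array. Changes in spots with values at 0, as most member spots have, were not covered by it. The number of arrays limits the precision.

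Genes were named from the platform annotation (18025 spots with 1 symbol, 858 with several, 15677 unnamed). Of the spots with 1 symbol, 17928 had their Entrez identifier in the RefSeq table (GRCh38.p14). The members and lists were chosen with earlier results of these data known. Up to 3 genes per list and comparison, those with the smallest p, could be named, beside the members and the 2 most similar spots per member. Alternatives concerned values at 0, normalization, dim spots, paired columns, the variance trend, the groups in the fit, the replicate number as a block and each array left out. The placing of the pair with opposite labels was added after seeing the data. Replicate numbers did not pair the arrays throughout: deviations of same-numbered arrays within a line correlated between -0.365 and 0.665, the latter for CaCo-2 replicate 1. CaCo-2 control replicate 1 and CaCo-2 TNF replicates 1 and 2 had lowest positive values of 0.130 to 0.136. The other CaCo-2 arrays used had 0.092 to 0.108. CaCo-2 control replicate 5 and CaCo-2 TNF replicate 6 had highest values of 134.6 and 133.4, against 142.6 or more on the others. Such sets of arrays were not modelled, so the SE do not allow for them.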

Additional observations from a re-analysis of the deposited data

Results flagged for a closer look

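Values in groups of 4 to 10 arrays were searched for 1 array far from the others, in 34 groups of normalized log2 values. This gave 11, where chance gives about 1.7 for values without ties, which values at 0 do not meet. In 7 of the 11, 1 array was at 0 (-3.26 after normalization) and the others were not. These were JUNB spot 54O01 in CaCo-2 control replicate 3, IER3 and ZFP36L1 in CaCo-2 control replicate 2, and PPP1R15A in CaCo-2 TNF replicate 6 and in THP-1 control replicate 1. GADD45B in CaCo-2 TNF replicate 5 and MCL1 spot 25B21 in CaCo-2 TNF replicate 1 were the other two. In 3 of the 11, 1 array was above 0 and the others at 0. These were JUNB spot 54O01 in CaCo-2 TNF replicate 4 at -1.28, and JUNB spot 89L10 in CaCo-2 control replicate 2 at -2.99 and in THP-1 control replicate 2 at -2.90. MCL1 spot 25B21 in THP-1 TNF replicate 6 read -2.32, against -2.22 to -2.15 on the other 6 arrays. THP-1 TNF replicate 6 also had the highest number of excluded spots, 286. The causes were not tested.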

How the results depend on the processing

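The CaCo-2 against THP-1 count of 1499 called spots was 241 without normalization, 458 with array medians subtracted, 155 with unstimulated arrays only, and 908 with the replicate block. It ran from 1095 to 2111 over left-out arrays. The TNF count of 15 in CaCo-2 was 0 with 0 as missing (725 of 25624 spots at an unadjusted p under 0.05 in limma), 0 over spots above 0 on every array (193 of 7966), and 0 with summed columns in place of single ones (1359 of 34556). It was 1 without normalization, 4 with the replicate block, 6 with the pair of opposite labels as CaCo-2 TNF and 9 with it as CaCo-2 control. It was between 29 and 51 with any 1 of the 10 arrays left out. The TNF count of 5 in THP-1 was 0 with 0 as missing (917 of 26175 at an unadjusted p under 0.05), 0 over spots above 0 on every array (299 of 9979) and 0 with all groups in 1 fit (1098 of 34559). It was 1 without normalization or with array medians subtracted, 10 with summed columns, and 73 with the replicate block. It ran from 5 to 20 over left-out arrays. The causes were not tested, except that fits with 0 as missing or with spots above 0 on every array test fewer spots by construction.

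Of 294 recomputed member differences between the lines, 277 kept their sign and their side of the threshold, 1 passed (JUNB spot 22G16 with 0 as missing) and 16 changed sign. With unstimulated arrays only, JUNB spot 54O01 stood at 0.526, PPP1R15A at 0.23, ZFP36L1 at 0.27, MCL1 spot 25B21 at 0.0473 and MCL1 spot 85G24 at -0.0316. JUNB spot 89L10 was 0.0560 without normalization and 0.10 with array medians subtracted. MCL1 spot 85G24 was -0.0012 without normalization, and IER3 was 0.0145 with 0 as missing. GADD45B was 0.0198 with array medians subtracted, 0.0299 with summed columns, 0.0273 with the replicate block and 0.0045 with the pair of opposite labels as CaCo-2 TNF. It ran from -0.0525 to 0.0071 over left-out arrays, above 0 without THP-1 control replicate 3 and without THP-1 TNF replicate 8 (0.0013), and MCL1 spot 25B21, which ran from -0.122 to 0.0062, was above 0 without CaCo-2 TNF replicate 1. GADD45B, ZFP36L1 and JUNB spots 54O01 and 89L10 had no value with 0 as missing in CaCo-2 or between the lines. None of these sign changes concerned a called difference. Of the TNF differences of member spots, 176 of 183 in CaCo-2 and 202 of 210 in THP-1 moved by less than 1 SD between arrays. The others were as follows. In CaCo-2, the mean of single and summed columns gave 0.54 for JUNB spot 22G16 and 0.53 for 89L10, and summed columns in place of single ones gave 0.46 for 89L10. ZFP36L1 and GADD45B, given no fold change in CaCo-2, also moved there under both. In THP-1, JUNB spot 89L10 stood between 0.48 and 0.82 without normalization, with array medians subtracted and with either use of summed columns. With the mean and with the sums, IER3 in THP-1 was 0.12 and 0.23, and GADD45B in THP-1 was -0.33 and -0.61. For GADD45B in THP-1 the counts of readings behind the sums went against that sign. In these settings every sum was divided by 3, whatever its number of readings above 0, and arrays with no partner stayed unchanged. The resulting moves therefore depend on that divisor as well.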
